A study of Mus musculus with 152 samples.

Results

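Complement and coagulation proteins are 43 genes of the blood's defence and clotting cascades, taken by symbol from the 54532 Ensembl genes of the deposited tables, where each symbol matched 1 gene. They are divided by the cell that makes most of the protein: 37 are made mainly by hepatocytes and 6 by macrophages. They were followed in whole liver of inbred C57BL/6J mice. From 8 weeks of age the animals ate LIDPAD, a diet designed to give mice a fatty liver without alcohol, or its purified control. Feeding lasted 1, 4, 8, 12, 16, 32 or 48 weeks, which gave 7 LIDPAD groups, each with a control group of the same duration. The labels name no mutation, transgene or drug, and give neither sex, hour of collection nor animal. The 152 deposited columns stood in blocks of 4 that differed from each other by less than the sampling noise allows between separate libraries, so each block was counted as 1 library. This left 20 LIDPAD and 18 control libraries: 2 against 2 at weeks 1, 4, 8 and 12, 3 against 3 at week 16, 5 against 4 at week 32 and 4 against 3 at week 48. Whether each library is a different mouse is not stated, and the p-values therefore reflect library-to-library spread, part of which may be technical.

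Complement is a chain of plasma proteases that marks microbes and dying cells. The classical route starts when C1q binds antibody or cell debris, the lectin route when mannose-binding lectins bind sugars, and both meet the alternative route at C3, after which the terminal proteins build a pore in the target membrane. Coagulation is another chain of proteases that ends when thrombin turns fibrinogen into a fibrin clot, held in check by inhibitors such as antithrombin and dissolved by plasmin. Hepatocytes secrete nearly all of these proteins into blood, whereas C1q and properdin come largely from macrophages and other myeloid cells, which also carry the receptors for the fragments C3a and C5a. Clotting factor synthesis is a textbook measure of how well a liver works.

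Values are in FPM, reads of a gene after size-factor scaling per 1000000, with no adjustment for gene length. Log2 changes are LIDPAD minus control on the log2(FPM + 0.5) scale, which understates the change of low genes, and are given ± SE. A gene was called where the limma p-value, adjusted over all genes tested in that week, was under 0.05, and "rose" and "fell" are written only of called changes. Library depth ran from 10.9 to 53.8 M (1000000 reads). Hepatocyte markers were abundant in every library, their 7 genes together at 37264 to 111588 FPM, while the 4 adipocyte markers together stayed at or under 0.393 FPM. Several libraries stood apart. Control library 2 of week 4 and control library 3 of week 48 held Trem2, a marker of lipid-laden macrophages, at 4.30 and 3.80 FPM, against at most 1.19 FPM in every other control library. Control library 2 of week 16 held the acute phase gene Saa1 at 1591 FPM, against 116 and 271 FPM in control libraries 1 and 3. It also held the highest C3 of that group, at 8507 FPM. LIDPAD library 1 of week 32 held Alb at 92259 FPM, the highest of all libraries, and the Kupffer cell marker Clec4f at 0.716 FPM, the lowest, and LIDPAD library 2 of week 32 held the macrophage gene Cd5l at 872 FPM, the highest. The week 32 libraries fell into 2 sets by how each was divided among its columns, and with set as a term 7 members rose and 19 fell there (20.0% and 10.8% of all genes). Each week has its own table, normalized separately, so changes were tested within a week, and levels set side by side across weeks are on separate scales. Most values without control library 3 of week 48 are gathered in 1 paragraph below. That library was singled out after its values were seen, which limits every fit without it.

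In LIDPAD livers the 2 sources differed from control in opposite directions at the later durations. From week 8 onward 5 or 6 of the 6 macrophage-made genes were called higher in LIDPAD livers, with the largest median change at week 32. Of the 37 hepatocyte-made genes 5 were called lower at week 8 and 13 to 28 at weeks 12 to 48, with the largest median change at week 16 (-0.64). That order did not hold without the libraries that stood apart at weeks 32 and 48. The hepatocyte-made median was -0.69 at week 32 without LIDPAD libraries 1 and 2 and -0.75 at week 48 without control library 3. After 1 week and after 4 weeks no member was called, 0 of 42 tested at week 1 and 0 of 43 at week 4, while 1.99% and 0.287% of all genes tested were. At an unadjusted limma p under 0.05 there were 7 of 42 members at week 1 and 3 of 43 at week 4. Among all genes tested there were 1965 of 12538 and 1457 of 13237. Neither edgeR nor DESeq2 called any member in either week. Without LIDPAD library 1, 4 macrophage-made members were called higher and none lower at week 1 (4.78% and 3.79% of all genes), and without control library 1, 1 member was called higher and 2 lower at week 4 (3.17% and 2.95% of all genes). At week 8, 5 members rose, all of them macrophage-made (3.85% of all genes tested rose), and 5 hepatocyte-made members fell (1.75% of all genes). At week 12, 5 macrophage-made members rose (8.99% of all genes) and 13 hepatocyte-made members fell (6.25%). C5ar1, among those that rose from week 12 onward, passed the filter through its LIDPAD libraries. In either direction 5.6% of all genes were called at week 8, 15.2% at week 12, 28.2% at week 16, 26.9% at week 32 and 9.87% at week 48.

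Week 16 had the most calls. All 6 macrophage-made members rose with 1 of the 37 hepatocyte-made members (16.3% of all genes rose), and 28 hepatocyte-made members fell (12.0% of all genes). At week 32 the same 7 members rose (18.0% of all genes) and 18 hepatocyte-made members fell (8.82%), a split of 7 and 6 after rescaling each library to the same total (28.4% and 2.53% of all genes). At week 48 the 6 macrophage-made members rose (6.54% of all genes) and 15 hepatocyte-made members fell (3.34%), or 6 and 9 after rescaling (19.3% and 1.27%). The median log2 change of the macrophage-made members was 0.50, -0.50, 0.64, 0.82, 1.73, 2.27 and 1.42 at weeks 1, 4, 8, 12, 16, 32 and 48, and that of the hepatocyte-made members was -0.02, -0.11, -0.29, -0.38, -0.64, -0.56 and -0.61. The median over all genes tested was 0.01, -0.01, -0.01, 0, 0, 0.04 and 0.01 in the same weeks. Of the 43 members, 6 were called in no week with all libraries: C4b, C2, C1s1, Mbl1, Cfb and F9.

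**Figure D1:**
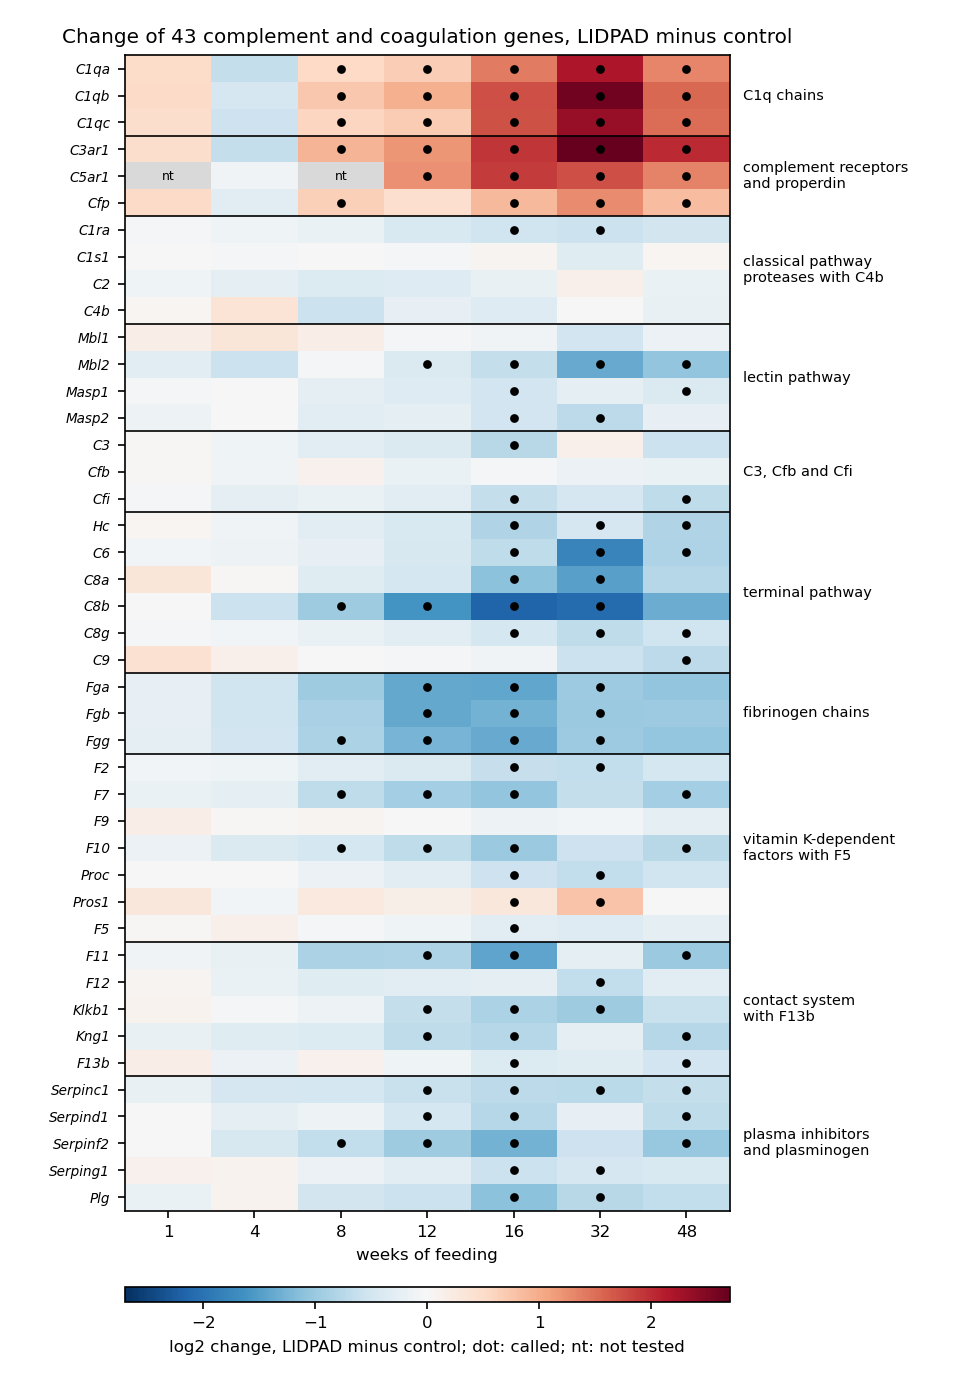
Log2 change, LIDPAD minus control, of the 43 genes (rows, grouped by role) at each feeding duration in weeks (columns), with red for higher and blue for lower in LIDPAD livers, a dot for a called change and nt for not tested. The C1q chains, C3ar1 and Cfp are red from week 8 and C5ar1, not tested at weeks 1 and 8, from week 12, up to 2.68 for C3ar1 at week 32. The rows of these genes that were tested are red at week 1 and blue at week 4, without a dot. Most rows below them turn blue, down to -2.17 for C8b at week 16.

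Cell type markers moved with both groups. At week 16 the 8 markers of recruited macrophages summed to 344 to 467 FPM in LIDPAD libraries, against 52.0 to 83.2 FPM in control libraries, and all 8 rose. The 7 Kupffer cell markers summed to 301 to 467 FPM in LIDPAD libraries, against 144 to 271 FPM in control libraries, and 4 of 7 rose. The changes of 2 of them, Timd4 and Marco, were below 0 without a call. None of these 15 genes was at 0 in all libraries of any week, and 1 of them, Vsig4, is also a complement receptor counted among the other complement genes below. At week 32 the sums were 528 to 1519 FPM, against 50.8 to 91.3 FPM, for recruited macrophages and 218 to 1287 FPM, against 111 to 208 FPM, for Kupffer cells. Of the Kupffer cell markers, 3 rose there and 3 had changes below 0 without a call. LIDPAD library 2, with the highest Kupffer cell sum, held Cd5l at 872 FPM. At week 48, 3 Kupffer cell markers rose and 1 fell. The 7 hepatocyte markers summed to 46133 to 52896 FPM in LIDPAD libraries at week 16, against 76702 to 88004 FPM in control libraries, with a median log2 change of -0.68 and 4 of 7 called lower. Alb was the largest part of the hepatocyte sum in every library. At week 16 Alb stood at 25715 to 32182 FPM in LIDPAD libraries, against 49759 to 62169 FPM in control libraries. The groups overlapped there for Apob, at 13235 to 14096 FPM and 13292 to 15089 FPM. At week 48 the hepatocyte sum was 39356 to 49032 FPM in LIDPAD libraries, against 72831 to 92172 FPM in control libraries. At week 32 the groups overlapped, with sums of 37264 to 111588 FPM in LIDPAD libraries, against 84022 to 104038 FPM in control libraries. The highest sum was that of LIDPAD library 1, and the other LIDPAD libraries, at 37264 to 44761 FPM, were below every control library. How much of the members' changes goes with these markers was not tested, and in bulk liver a change in the number of cells of a type cannot be told apart from a change in RNA per cell.

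The scale mattered for the hepatocyte-made genes. Column totals were not equal, and when each library was rescaled to a total of 1000000 the median log2 change of all genes stood at 0.02, 0.05, 0.10, 0.19, 0.20, 0.33 and 0.28 at weeks 1, 4, 8, 12, 16, 32 and 48. On that scale no member was called at week 1 (0.676% of all genes were called higher and 1.04% lower) or at week 4 (0.0903% and 0.0978%). At week 8, 5 members were called higher and 4 lower (6.52% and 1.19% of all genes), at week 12, 6 and 11 (13.8% and 2.89%), at week 16, 8 and 25 (28.3% and 5.74%), at week 32, 7 and 6 (28.4% and 2.53%), and at week 48, 6 and 9 (19.3% and 1.27%). The macrophage-made genes kept the same direction on either scale, and on the rescaled values all 6 were called higher from week 12 onward. Of the hepatocyte-made genes, those lower at week 32 on the rescaled values were Mbl2, C6, C8a, C8b, Fgg and Klkb1. The median log2 change of all hepatocyte-made genes on that scale was -0.17, -0.18, -0.43, -0.25 and -0.32 at weeks 8, 12, 16, 32 and 48, so that the median stayed below 0.

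**Figure D2:**
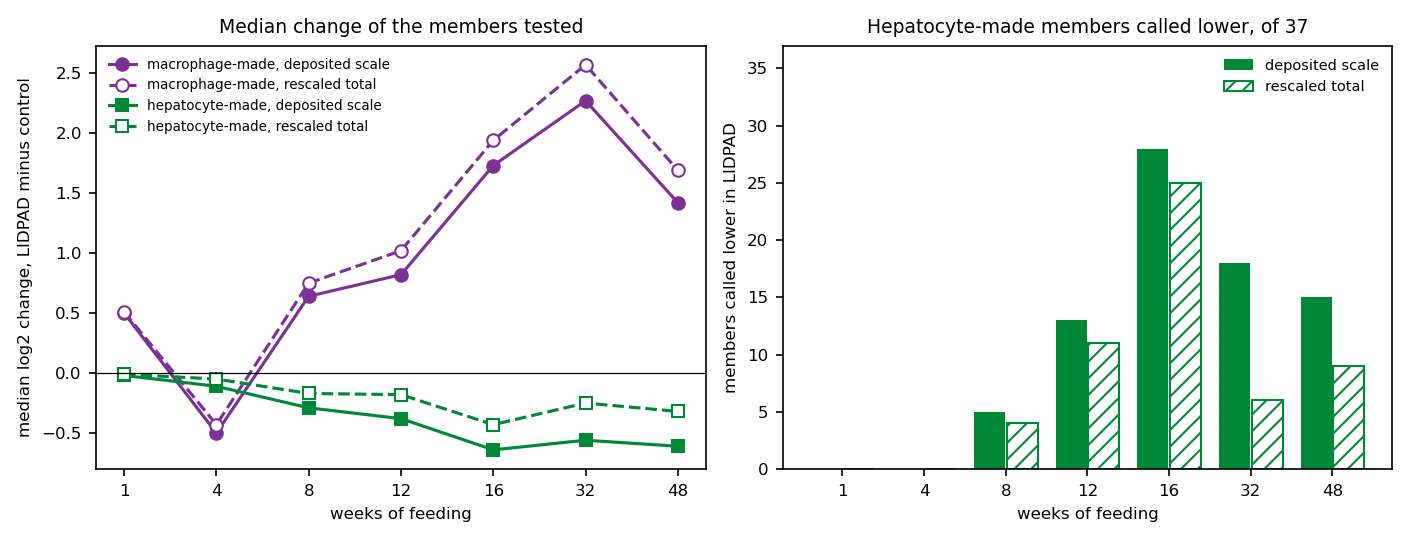
Left, median log2 change, LIDPAD minus control, of the tested macrophage-made (purple) and hepatocyte-made (green) genes at each feeding duration in weeks, on the deposited scale (filled, solid) and after rescaling each library to the same total (open, dashed). Right, number of the 37 hepatocyte-made genes called lower on each scale: 28 and 25 at week 16, but 18 and 6 at week 32.

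C1q, the recognition protein of the classical route, is built from the chains encoded by C1qa, C1qb and C1qc, which lie side by side on mouse chromosome 4 (GRCm38, 136880129 to 136898803, minus strand). All 3 chains rose together at every duration from week 8 to week 48. C1qb had 18.7 and 26.3 FPM in LIDPAD livers, against 14.3 and 16.7 FPM in control livers at week 1, and 22.9 and 17.9 FPM in LIDPAD livers, against 24.3 and 31.7 FPM in control livers at week 4. In neither week was it called (log2 change 0.51 ± 0.17, adjusted p = 0.211 at week 1 and log2 change -0.45 ± 0.19, adjusted p = 0.476 at week 4). The groups did not overlap in either week, but LIDPAD was the higher diet at week 1 and the lower at week 4, where control library 2, the library with Trem2 at 4.30 FPM, was the highest. Without that library the week 4 changes of C1qa, C1qb and C1qc were -0.47, -0.26 and -0.31, with no call. The recruited macrophage markers moved likewise at week 4, with sums of 51.2 to 65.4 FPM in LIDPAD libraries and 75.4 to 152 FPM in control libraries, and their part in this difference was not tested.

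At week 8 C1qb had 25.2 and 28.4 FPM in LIDPAD livers, against 16.5 and 15.4 FPM in control livers (log2 change 0.73 ± 0.11, adjusted p = 0.02). At week 12 it had 29.9 and 40.7 FPM in LIDPAD livers, against 19.1 and 16.4 FPM in control livers (log2 change 0.96 ± 0.16, adjusted p = 0.0052). Every LIDPAD library was above every control library in both weeks. At week 16 C1qb reached 61.2, 53.5 and 68.1 FPM in LIDPAD livers, against 25.5, 11.9 and 18.2 FPM in control livers (log2 change 1.75 ± 0.22, adjusted p = 0.000177). At week 32 it had 97.8, 174, 73.6, 57.1 and 56.7 FPM in LIDPAD livers, against 8.77, 15.8, 16.7 and 13.5 FPM in control livers (log2 change 2.61 ± 0.32, adjusted p = 0.000271). Library 2 was above every other LIDPAD library of that week by a wide margin, and even the lowest LIDPAD library was far above the highest control library. Without LIDPAD libraries 1 and 2 the week 32 change was 2.18 (adjusted p = 0.000157). At week 48 it had 78.8, 61.3, 62.6 and 61.6 FPM in LIDPAD livers, against 13.3, 21.2 and 37.1 FPM in control livers (log2 change 1.56 ± 0.30, adjusted p = 0.0207). Control library 3 was the highest control library by far and still under every LIDPAD library, and without it the change was 1.94 (adjusted p = 1.09e-05).

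The other chains followed. C1qc at week 16 had 59.1, 59.3 and 70.2 FPM in LIDPAD livers, against 23.1, 14.0 and 20.0 FPM in control livers (log2 change 1.72 ± 0.16, adjusted p = 3.22e-05), with no overlap. C1qa at week 16 had 59.4, 47.2 and 62.0 FPM in LIDPAD livers, against 27.8, 15.3 and 20.7 FPM in control livers (log2 change 1.41 ± 0.19, adjusted p = 0.000265), and again every LIDPAD library was above every control library. Their changes were 0.57 and 0.54 at week 8, 0.69 and 0.67 at week 12, 2.35 and 2.18 at week 32 and 1.5 and 1.31 at week 48, all called. Summed, the 3 chains came to 160 to 200 FPM in LIDPAD libraries at week 16, against 41.2 to 76.4 FPM in control libraries, and to 164 to 506 FPM at week 32, against 32.2 to 59.7 FPM. Per kb of exon, C1qb made up 36.8 to 41.9% of the chains' sum (median 39.0%) over the 20 LIDPAD libraries and 30.2 to 39.6% (median 35.4%) over the 18 control libraries. C1qa made up 36.2 to 41.6% (median 38.2%) in LIDPAD libraries and 38.9 to 48.9% (median 41.1%) in control libraries, so the balance between chains differed little beside the change in their sum.

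The bases just before the starts of C1qb and C1qc are shown. These are the 2 macrophage-made members with an entry whose windows hold the letters marked here. The sequences are from RefSeq (GRCm38.p6), from chr4:136886201-136886450 and chr4:136893066-136893164, both on the minus strand, and capitals mark GAGGAA or its reverse complement, the core letters bound by PU.1, a transcription factor of macrophages.
C1qb: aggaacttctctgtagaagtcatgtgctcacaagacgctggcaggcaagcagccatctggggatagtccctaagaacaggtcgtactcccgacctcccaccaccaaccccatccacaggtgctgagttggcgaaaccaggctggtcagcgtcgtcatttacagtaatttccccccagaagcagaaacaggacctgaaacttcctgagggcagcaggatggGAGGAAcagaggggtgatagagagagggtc
C1qc: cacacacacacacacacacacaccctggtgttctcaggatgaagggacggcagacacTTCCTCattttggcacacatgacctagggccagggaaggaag
Among all 32851 promoters, 23.3% held GAGGAA on either strand in the 250 bases before the start, and among the members with an entry 2 of 5 macrophage-made and 2 of 28 hepatocyte-made genes did. Fgb, printed below, is among those hepatocyte-made genes, with 2 matches that are left in small letters there. The C1qc stretch is shorter because the GENCODE gene begins 99 bases into that window. A match describes letters only.

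C3ar1 and C5ar1 encode the receptors through which macrophages and neutrophils sense C3a and C5a, and Cfp encodes properdin, which steadies the alternative route's C3 convertase. C3ar1 had the largest change of all members. At week 32 it had 25.0, 29.7, 13.2, 16.6 and 12.9 FPM in LIDPAD livers, against 1.73, 3.75, 2.34 and 2.32 FPM in control livers (log2 change 2.68 ± 0.28, adjusted p = 0.000111). The lowest LIDPAD library was above the highest control library. At week 16 C3ar1 had 10.6, 10.2 and 15.0 FPM in LIDPAD livers, against 4.43, 1.66 and 2.72 FPM in control livers (log2 change 1.92 ± 0.27, adjusted p = 0.00039), and at week 48 23.0, 19.5, 20.2 and 20.2 FPM in LIDPAD livers, against 2.58, 4.36 and 9.27 FPM in control livers (log2 change 2.01 ± 0.33, adjusted p = 0.016). Control library 3 was the highest control library at week 48. C3ar1 rose at week 8 and week 12 as well, by 0.91 ± 0.19 and 1.20 ± 0.24.

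C5ar1 was near the detection limit in control livers and was not tested at weeks 1 and 8, where too few libraries reached 1 FPM. At weeks 12 and 16 no control library reached 1 FPM, so it was tested there through its LIDPAD libraries alone. At weeks 32 and 48 its LIDPAD libraries were likewise enough to pass the filter. Its calls and its place in the counts above are therefore no separate support. At week 16 it had 2.79, 2.9 and 2.67 FPM in LIDPAD livers, against 0.079, 0.527 and 0.709 FPM in control livers (log2 change 1.88 ± 0.28, adjusted p = 0.000584), without overlap. It also rose at week 12 (1.24 ± 0.28), week 32 (1.75 ± 0.34) and week 48 (1.34 ± 0.23). Cfp changed less. At week 16 it had 19.7, 14.6 and 21.3 FPM in LIDPAD livers, against 16.7, 6.43 and 8.48 FPM in control livers (log2 change 0.88 ± 0.28, adjusted p = 0.0355), and control library 1 lay within the LIDPAD range. Cfp rose at week 8 (0.64 ± 0.13), week 32 (1.27 ± 0.40) and week 48 (0.84 ± 0.21). At week 32 LIDPAD library 2 stood at 62.3 FPM, against 18.9 FPM for the next, and without LIDPAD libraries 1 and 2 the change was 0.77 (adjusted p = 0.0234).

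**Figure D3:**
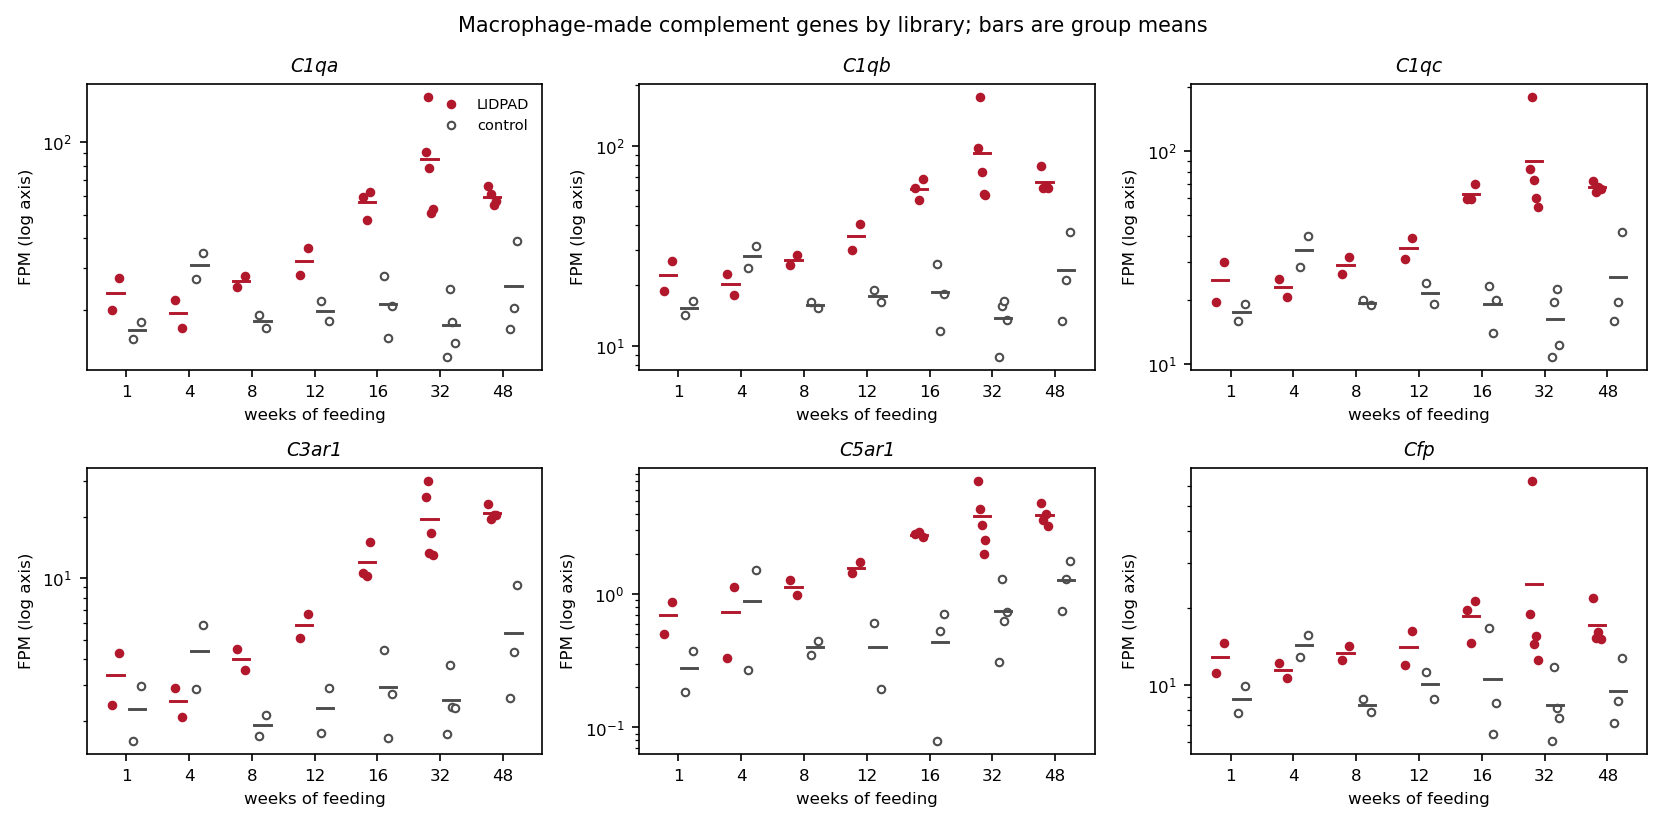
FPM on a log axis of the 6 macrophage-made genes in each library (points) by weeks of feeding, LIDPAD in red and to the left of control in grey, with bars for the group means. For C1qb the 3 LIDPAD libraries of week 16 lie at 53.5 to 68.1 FPM and the 3 control libraries at 11.9 to 25.5 FPM, while at week 4 the LIDPAD points lie below the control points.

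In the classical route downstream of C1q, hepatocytes make the proteases C1r and C1s, which C1q switches on, and C2 and C4, which they cleave. With all libraries, 1 of these 4 genes was called in any week. C1ra, which encodes C1r, fell at weeks 16 and 32. At week 16 C1ra had 215, 245 and 242 FPM in LIDPAD livers, against 348, 360.1 and 313 FPM in control livers (log2 change -0.54 ± 0.10, adjusted p = 0.00229), without overlap, and at week 32 it had 178, 274, 178, 196 and 189 FPM in LIDPAD livers, against 295, 281, 351 and 284 FPM in control livers (log2 change -0.59 ± 0.15, adjusted p = 0.016). LIDPAD library 2 was the highest of its group at week 32 but below all 4 control libraries, and the call was lost without control library 3 (adjusted p = 0.0529). C4b, the gene of these 4 with the highest FPM per kb of exon, had 1286, 1248 and 1196 FPM in LIDPAD livers, against 1602, 1469 and 1669 FPM in control livers at week 16 (log2 change -0.34 ± 0.12, adjusted p = 0.0555, not called), with every LIDPAD library below every control library. C1s1 had changes of -0.33 to 0.07 and C2 of -0.37 to 0.14 over the 7 weeks, with no call. C1ra, C1s1 and C4b have close copies in the mouse (C1rb, C1s2 and C4a), between which reads may have been divided, and 46.9% of the exon bases of C2 overlap other genes.

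At week 16, therefore, 3 of 3 C1q chains rose, while of the genes downstream C1ra fell and C1s1, C2 and C4b had changes of 0.07, -0.19 and -0.34 without a call. On the rescaled values C1s1 was called higher at week 16 (0.28, adjusted p = 0.0398).

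Lectin route genes encode the mannose-binding lectins Mbl1 and Mbl2 and their proteases Masp1 and Masp2. Mbl2 fell from week 12 onward and most at week 32. At week 32 it had 85.2, 34.5, 68.5, 68.9 and 74.2 FPM in LIDPAD livers, against 214, 185, 109 and 167 FPM in control livers (log2 change -1.36 ± 0.26, adjusted p = 0.00339), and the highest LIDPAD library was below the lowest control library. Its changes at the other durations were -0.38 ± 0.10 at week 12, -0.65 ± 0.15 at week 16 and -1.07 ± 0.18 at week 48. Mbl1, its close relative, was called in no week, with changes of -0.51 to 0.33. At week 16 it had 128, 146 and 116 FPM in LIDPAD livers, against 167, 137 and 113 FPM in control livers, and the groups overlapped. Masp1 had 129.8, 131 and 124 FPM in LIDPAD livers, against 172, 187 and 189 FPM in control livers at week 16 (log2 change -0.51 ± 0.09, adjusted p = 0.0014), with tight groups that did not overlap, and it fell again at week 48 (-0.40 ± 0.09) but not at week 32 (-0.24 ± 0.17, adjusted p = 0.326). Masp2 fell at week 16 (-0.51 ± 0.11) and week 32 (-0.71 ± 0.15). Of its exon bases 54.9% overlap Tardbp on the opposite strand, and whether the counting used strand is not given in the sources used here. On the rescaled values neither change of Masp2 was called.

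C3, on which all routes converge, was by FPM per kb of exon the third most abundant member in control livers. It had 4711, 4219 and 4519 FPM in LIDPAD livers, against 6673, 8507 and 7395 FPM in control livers at week 16 (log2 change -0.74 ± 0.19, adjusted p = 0.0133), and every LIDPAD library was well below every control library. That call was lost when LIDPAD library 3 was left out (adjusted p = 0.0632). In no other week was C3 called, and at week 32 its groups overlapped (6407, 7165, 5338, 3222 and 3202 FPM in LIDPAD livers, against 5023, 4770.0, 3684 and 4162 FPM in control livers). Cfi encodes factor I, the protease that inactivates C3b. It had 306, 326 and 353 FPM in LIDPAD livers, against 581, 466 and 494 FPM in control livers at week 16 (log2 change -0.64 ± 0.11, adjusted p = 0.00161), without overlap, and it fell at week 48 (-0.68 ± 0.17). At week 32 LIDPAD library 1 held 646 FPM, against 240 to 311 FPM in the other 4 LIDPAD libraries and 443 to 457 FPM in control libraries, and the change of -0.45 ± 0.25 was not called. With LIDPAD libraries 1 and 2 left out it was -0.75 (adjusted p = 0.00177). Cfb, factor B of the alternative route, was called in no week (changes -0.18 to 0.12), but 79.5% of its exon bases overlap a readthrough gene, Gm20547, so its low level of 2.85 to 9.01 FPM is uncertain.

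The terminal proteins C5 (gene Hc), C6, C8 and C9 build the membrane pore, and their genes held the largest fall of all members. C8b encodes the beta chain of C8. It fell at weeks 8, 12, 16 and 32. At week 8 C8b had 80.4 and 93.3 FPM in LIDPAD livers, against 143 and 198 FPM in control livers (log2 change -0.95 ± 0.17, adjusted p = 0.0284). At week 12 it had 74.3 and 86.6 FPM in LIDPAD livers, against 294 and 209.6 FPM in control livers (log2 change -1.62 ± 0.16, adjusted p = 0.000471). Both LIDPAD libraries were below both control libraries in each week. At week 16 C8b had 45.9, 63.4 and 47.4 FPM in LIDPAD livers, against 283, 203 and 226 FPM in control livers (log2 change -2.17 ± 0.15, adjusted p = 4.75e-06), with the control libraries far above every LIDPAD library. At week 32 it had 60.5, 61.6, 44.3, 33.5 and 28.3 FPM in LIDPAD livers, against 112, 172, 256 and 239 FPM in control livers (log2 change -2.08 ± 0.29, adjusted p = 0.000551), again without overlap. At week 48 C8b had 72.9, 53.2, 50.7 and 76.5 FPM in LIDPAD livers, against 195, 253 and 80.0 FPM in control livers (log2 change -1.34 ± 0.37, adjusted p = 0.0566), not called. Control library 3 was close to the LIDPAD libraries, and without it the change was -1.83 (adjusted p = 2.04e-05).

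All 3 chains of C8 fell at weeks 16 and 32. C8a, the neighbour of C8b at a distance of 11.1 kb on chromosome 4, had changes of -1.11 ± 0.12 at week 16 and -1.47 ± 0.23 at week 32. C8g lies on chromosome 2 and had 104, 114 and 108 FPM in LIDPAD livers, against 157, 157 and 138 FPM in control livers at week 16 (log2 change -0.47 ± 0.09, adjusted p = 0.00334), without overlap, with further falls of -0.68 at week 32 and -0.54 at week 48. Per kb of exon C8b made up 6.67 to 23.6% of the sum of the chains (median 13.4%) over the 20 LIDPAD libraries and 15.5 to 25.7% (median 21.9%) over the 18 control libraries.

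Hc fell at weeks 16, 32 and 48. At week 16 it had 578, 603 and 581 FPM in LIDPAD livers, against 1067, 919 and 1142 FPM in control livers (log2 change -0.82 ± 0.12, adjusted p = 0.000409), with LIDPAD libraries close together and all below the control libraries. At weeks 32 and 48 the changes were -0.46 ± 0.14 and -0.82 ± 0.15. C6 fell most at week 32, where it had 29.3, 64.5, 86.5, 132 and 113 FPM in LIDPAD livers, against 168, 335, 278 and 289.8 FPM in control livers (log2 change -1.78 ± 0.38, adjusted p = 0.0061). LIDPAD libraries 1 and 2 were the lowest, every LIDPAD library was below every control library, and without libraries 1 and 2 the change was -1.25 (adjusted p = 0.00415). C6 also fell at week 16 (-0.69 ± 0.19) and week 48 (-0.84 ± 0.18). C9, which forms the ring of the pore, was called at week 48 alone (-0.71 ± 0.13) and had 183 ± 9.2 FPM in LIDPAD livers and 195 ± 14.9 FPM in control livers at week 16 (SD, n = 3 each). On the rescaled values 5 terminal genes were called lower at week 16 (all but C9), 3 at week 32 (C6, C8a and C8b) and 3 at week 48. Those of week 48 were Hc, C6 and C8b (-1.05, adjusted p = 0.0494), while C8g and C9 were not called there on that scale.

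**Figure D4:**
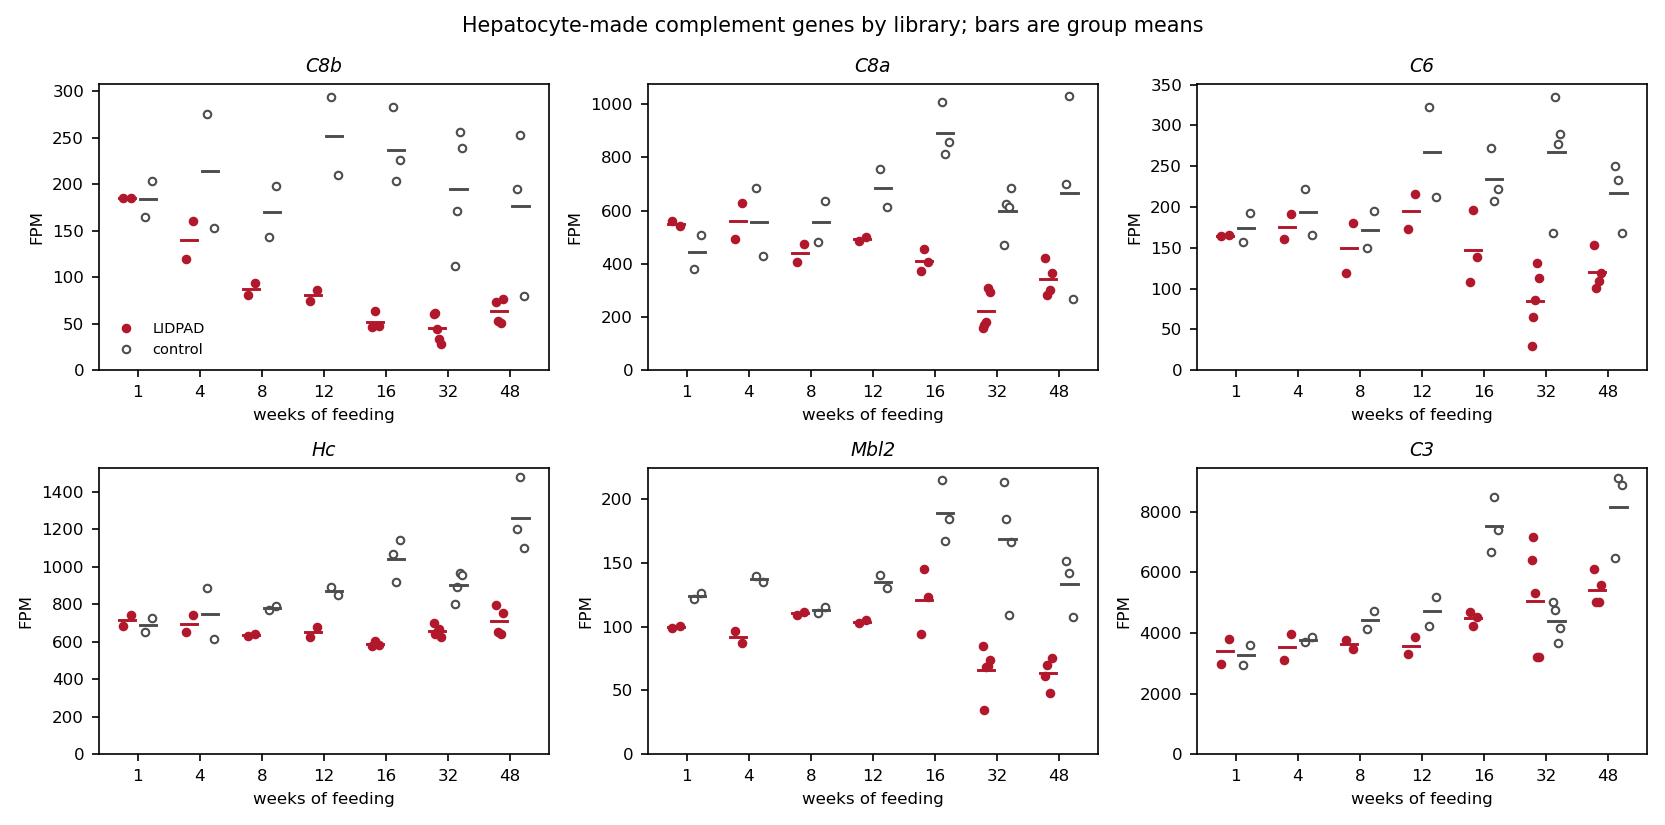
FPM of 6 hepatocyte-made complement genes in each library (points) by weeks of feeding, LIDPAD in red and to the left of control in grey, with bars for the group means and axes that start at 0. C8b shows the widest gap, with LIDPAD libraries at 45.9 to 63.4 FPM and control libraries at 203 to 283 FPM at week 16, and the control library near 80 FPM at week 48 is library 3.

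Fibrinogen, the precursor of fibrin and the most abundant clotting protein in plasma, is made of the chains encoded by Fga, Fgb and Fgg, which lie within chromosome 3, 83007724 to 83049863 (GRCm38). All 3 chains fell together at weeks 12, 16 and 32, and Fgg also at week 8. Fga had 2524 and 2958 FPM in LIDPAD livers, against 3127 and 3289 FPM in control livers at week 1 (log2 change -0.23 ± 0.17, adjusted p = 0.563), and 2436 and 3199.8 FPM in LIDPAD livers, against 4884 and 3358 FPM in control livers at week 4 (log2 change -0.54 ± 0.41, adjusted p = 0.692). Neither was called, though LIDPAD libraries were below control libraries in both weeks. At week 8 Fga had 2143 and 2457 FPM in LIDPAD livers, against 4891 and 4112 FPM in control livers (log2 change -0.97 ± 0.21, adjusted p = 0.0502, not called). At week 12 it had 2176 and 1911 FPM in LIDPAD livers, against 5953 and 4781 FPM in control livers (log2 change -1.39 ± 0.19, adjusted p = 0.00215). Both LIDPAD libraries were far below both control libraries at week 12.

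At week 16 Fga had 1387, 1709 and 1575 FPM in LIDPAD livers, against 5179.9, 3842 and 3523 FPM in control livers (log2 change -1.41 ± 0.18, adjusted p = 0.000201). All LIDPAD libraries were far below all control libraries. At week 32 it had 3459, 2235, 1445, 2054 and 1965 FPM in LIDPAD livers, against 3169, 3482, 5539 and 5221 FPM in control livers (log2 change -0.98 ± 0.32, adjusted p = 0.0405), and LIDPAD library 1 lay among the control libraries while the other 4 were below them. Without LIDPAD libraries 1 and 2 the change was -1.23 (adjusted p = 0.0103). At week 48 Fga had 1825, 1854, 1439.8 and 1932 FPM in LIDPAD livers, against 4276, 5347 and 2111 FPM in control livers (log2 change -1.06 ± 0.32, adjusted p = 0.074), not called. Control library 3 was near the LIDPAD range, and without it the change was -1.45 (adjusted p = 7.05e-05).

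Fgb and Fgg traced the same course. At week 16 Fgb had 1254, 1354 and 1447 FPM in LIDPAD livers, against 4168, 2924 and 2895 FPM in control livers (log2 change -1.28 ± 0.17, adjusted p = 0.000275). Fgg had 777, 939 and 888 FPM in LIDPAD livers, against 2821, 2049.8 and 1944 FPM in control livers at week 16 (log2 change -1.37 ± 0.16, adjusted p = 0.000124). In neither did the groups overlap. At week 12 their changes were -1.38 ± 0.17 and -1.26 ± 0.16, and at week 32 -1.0 ± 0.32 and -0.98 ± 0.29. Summed, the chains came to 3417 to 4002 FPM in LIDPAD libraries at week 16, against 8362 to 12169 FPM in control libraries. Fga made up 38.6 to 41.4% of their sum per kb over the LIDPAD libraries and 38.4 to 42.4% over the control libraries, so the ratio of the chains was nearly fixed. On the rescaled values all 3 chains were called lower at weeks 12 and 16, and at week 32 Fgg alone was called (-0.68, adjusted p = 0.0499).

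The bases before the 3 starts are shown because the chains moved together. They are from RefSeq (GRCm38.p6), from chr3:83025903-83026075 on the plus strand, chr3:83049864-83050113 on the minus strand and chr3:83007474-83007723 on the plus strand. Capitals mark letters, on either strand, of GTTAAT (bound by HNF1, a hepatocyte factor), CTGGGA (bound by STAT3, which carries the signal of interleukin-6) and TTNNGNAA (bound by C/EBP factors), and no capitals of different motifs overlap.
Fga: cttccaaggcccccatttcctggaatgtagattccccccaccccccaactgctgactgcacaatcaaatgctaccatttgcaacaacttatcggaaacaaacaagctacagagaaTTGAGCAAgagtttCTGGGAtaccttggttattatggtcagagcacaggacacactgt
Fgb: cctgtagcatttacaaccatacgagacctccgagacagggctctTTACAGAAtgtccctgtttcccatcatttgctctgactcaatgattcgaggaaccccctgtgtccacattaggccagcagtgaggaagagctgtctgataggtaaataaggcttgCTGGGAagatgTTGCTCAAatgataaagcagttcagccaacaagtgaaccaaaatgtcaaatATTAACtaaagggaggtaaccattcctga
Fgg: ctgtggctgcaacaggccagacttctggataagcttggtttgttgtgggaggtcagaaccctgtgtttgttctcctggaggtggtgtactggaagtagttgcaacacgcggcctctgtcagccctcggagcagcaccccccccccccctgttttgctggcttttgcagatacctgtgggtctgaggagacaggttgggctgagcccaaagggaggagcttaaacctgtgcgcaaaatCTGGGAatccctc
CTGGGA was in all 3 windows of 250 bases, in 13 of 28 hepatocyte-made members with an entry and in 27.0% of all 32851 promoters. GTTAAT was in the windows of Fga and Fgb, in 7 of 28 hepatocyte-made members and in 6.43% of all promoters. TTNNGNAA was in the windows of Fga and Fgb, in 14 of 28 and in 36.8%. The Fga stretch ends where the GENCODE gene begins, so the GTTAAT match of its window, which lies further on, is not printed.

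**Figure D5:**
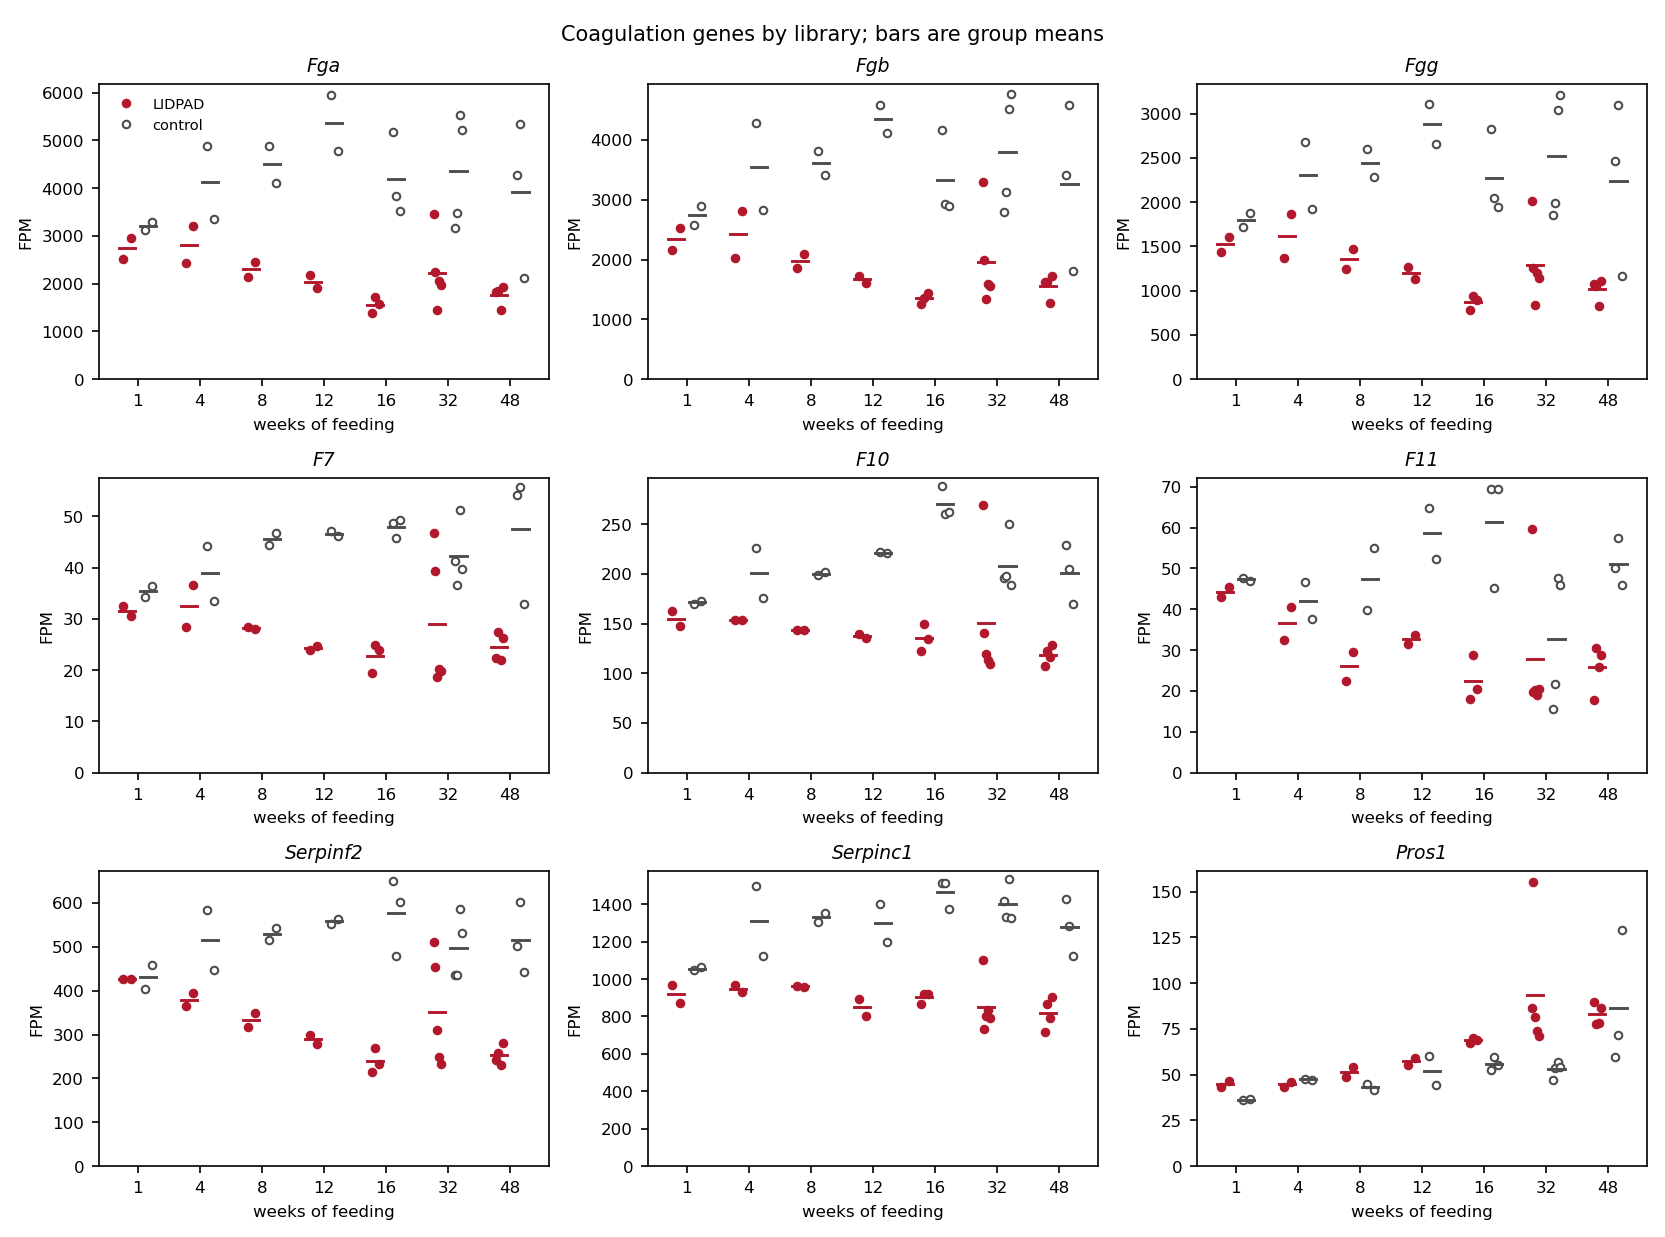
FPM of 9 coagulation genes in each library (points) by weeks of feeding, LIDPAD in red and to the left of control in grey, with bars for the group means and axes that start at 0. The fibrinogen chains, F7, F10, F11, Serpinf2 and Serpinc1 are lower in LIDPAD livers at week 16, Pros1 is higher there, and the single high red points at week 32 in F10 (270 FPM) and F11 (59.7 FPM) are LIDPAD library 1.

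Prothrombin (F2), factors VII, IX and X and the anticoagulants protein C (Proc) and protein S (Pros1) need vitamin K for their synthesis, and factor V (F5) is the cofactor of factor X. F7, whose product starts clotting with tissue factor, and F10, its neighbour 1.5 kb away on chromosome 8, fell at weeks 8, 12, 16 and 48. F7 had 19.3, 24.8 and 23.9 FPM in LIDPAD livers, against 48.7, 45.8 and 49.3 FPM in control livers at week 16 (log2 change -1.07 ± 0.11, adjusted p = 6.33e-05). F10 had 122, 149.9 and 134 FPM in LIDPAD livers, against 288, 260.2 and 262 FPM in control livers at week 16 (log2 change -1.0 ± 0.10, adjusted p = 5.21e-05). In both genes the LIDPAD libraries lay close together, below every control library. Their changes were -0.68 ± 0.10 and -0.48 ± 0.10 at week 8, -0.92 ± 0.11 and -0.69 ± 0.10 at week 12, and -0.91 ± 0.19 and -0.75 ± 0.12 at week 48.

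Neither F7 nor F10 was called at week 32. F10 had 269.6, 141, 119, 113 and 109 FPM in LIDPAD livers, against 196, 198, 251 and 189 FPM in control livers there (log2 change -0.55 ± 0.25, adjusted p = 0.122). LIDPAD library 1 was above all control libraries while the other 4 were below them, and without LIDPAD libraries 1 and 2 the change was -0.86 for F10 (adjusted p = 0.0012) and -1.08 for F7 (adjusted p = 0.000474).

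Of the other vitamin K-dependent genes, F2 and Proc fell at weeks 16 and 32 (-0.62 ± 0.11 and -0.66 ± 0.22 for F2, -0.55 ± 0.09 and -0.67 ± 0.12 for Proc), and F9 was called in no week (changes -0.25 to 0.17). F5 fell at week 16 alone (-0.30 ± 0.10, adjusted p = 0.0485). Pros1 was the exception among the hepatocyte-made genes, since it rose. It had 67.3, 70.0 and 69.1 FPM in LIDPAD livers, against 52.4, 59.7 and 55.5 FPM in control livers at week 16 (log2 change 0.30 ± 0.09, adjusted p = 0.0281). At week 32 it had 86.3, 155, 81.7, 73.7 and 71.2 FPM in LIDPAD livers, against 46.9, 53.6, 57.0 and 53.9 FPM in control livers (log2 change 0.76 ± 0.21, adjusted p = 0.0198). All LIDPAD libraries were above all control libraries in both weeks, with LIDPAD library 2 far above the rest at week 32, and without LIDPAD libraries 1 and 2 the change was 0.51 (adjusted p = 0.0088). Protein S is also made by endothelium and macrophages, and Pros1 was named here after its values were seen. The macrophage marker sums given above were higher in the same LIDPAD groups, and their part in the change of Pros1 was not tested.

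The contact system starts clotting on a surface: factor XII (F12) and prekallikrein (Klkb1) activate each other with kininogen (Kng1) as cofactor, and factor XI (F11) passes the signal on. F11 had 18.1, 28.8 and 20.4 FPM in LIDPAD livers, against 69.4, 45.1 and 69.6 FPM in control livers at week 16 (log2 change -1.43 ± 0.19, adjusted p = 0.000309), without overlap. It also fell at week 12 (-0.83 ± 0.13) and week 48 (-1.0 ± 0.18). At week 32 the control libraries themselves were spread from 15.6 to 47.7 FPM, with control libraries 1 and 2 near LIDPAD libraries 2 to 5, and no change was called (-0.24 ± 0.40, adjusted p = 0.712). Klkb1, whose gene lies 4.7 kb from F11, had 68.2, 79.2 and 79.3 FPM in LIDPAD livers, against 138, 139 and 134 FPM in control livers at week 16 (log2 change -0.86 ± 0.09, adjusted p = 7.51e-05). At week 32 Klkb1 had 78.6, 66.8, 66.5, 83.4 and 76.5 FPM in LIDPAD livers, against 142, 125, 141 and 176 FPM in control livers (log2 change -0.96 ± 0.13, adjusted p = 0.000438), and all 5 LIDPAD libraries were below all 4 control libraries. A predicted gene, Gm45753, shares 43.2% of the exon bases of Klkb1 and held at most 0.160 FPM in any library. How reads on the shared bases were assigned was not tested, so the level of Klkb1 is uncertain, like that of Cfb.

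Kng1 had 820.0, 970.2 and 928 FPM in LIDPAD livers, against 1688, 1635 and 1333 FPM in control livers at week 16 (log2 change -0.77 ± 0.14, adjusted p = 0.00158), without overlap, and fell too at week 12 (-0.68 ± 0.15) and week 48 (-0.77 ± 0.16). LIDPAD libraries 1 and 2 at week 32 held 1896 and 1549 FPM, against 815 to 877 FPM in the other 3 LIDPAD libraries and 1205 to 1556 FPM in control libraries. The change there was -0.27 ± 0.29 and not called, and without those libraries -0.69 (adjusted p = 0.0127). Reads may have been divided between Kng1 and its close copy Kng2. F12 fell at week 32 alone (-0.66 ± 0.15). F13b, the carrier chain of the fibrin-linking enzyme factor XIII, fell at week 16 (-0.36 ± 0.10) and week 48 (-0.51 ± 0.13), and neither of its calls was made on the rescaled values.

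Genes that hold clotting and clot lysis in check were lower as well. Serpinf2 encodes the main inhibitor of plasmin and fell at weeks 8, 12, 16 and 48. It had 215, 269 and 233 FPM in LIDPAD livers, against 651, 480.0 and 602 FPM in control livers at week 16 (log2 change -1.27 ± 0.13, adjusted p = 6.19e-05). At week 12 it had 299 and 278 FPM in LIDPAD livers, against 552 and 564 FPM in control livers (log2 change -0.95 ± 0.11, adjusted p = 0.00103). Every LIDPAD library was below every control library in both weeks. The changes were -0.67 ± 0.12 at week 8 and -1.02 ± 0.13 at week 48, and at week 32 -0.56 ± 0.25 (adjusted p = 0.117), where LIDPAD libraries 1 and 2, at 511 and 455 FPM, lay among the control libraries. Without those libraries it was -0.91 (adjusted p = 0.0031).

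Serpinc1 encodes antithrombin, the main inhibitor of thrombin and factor Xa. It fell at weeks 12, 16, 32 and 48, and at week 16 it had 869, 921 and 920.0 FPM in LIDPAD livers, against 1512, 1514 and 1376 FPM in control livers (log2 change -0.70 ± 0.11, adjusted p = 0.00104), without overlap. Of its exon bases 34.4% overlap Zbtb37. The changes at weeks 12, 32 and 48 were -0.61 ± 0.14, -0.73 ± 0.18 and -0.64 ± 0.14. Serpind1, heparin cofactor II, had 188, 215 and 205 FPM in LIDPAD livers, against 352, 354 and 334 FPM in control livers at week 16 (log2 change -0.78 ± 0.09, adjusted p = 0.000146). It fell at week 12 (-0.48 ± 0.11) and week 48 (-0.68 ± 0.15) as well. At week 32 LIDPAD library 2 held 494 FPM, the highest of all, and the change was -0.22 ± 0.25 and not called. Without LIDPAD libraries 1 and 2 it was -0.56 (adjusted p = 0.0152). Plg, which encodes plasminogen, had 444, 527 and 469 FPM in LIDPAD livers, against 1005, 1024 and 1047 FPM in control livers at week 16, where it fell (log2 change -1.10 ± 0.11, adjusted p = 4.24e-05), as it did at week 32 (-0.75 ± 0.18). Serping1, the inhibitor of C1 and of kallikrein, fell at week 16 (-0.59 ± 0.10) and week 32 (-0.45 ± 0.13). At week 16, then, Plg and the 4 inhibitor genes all fell.

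Week 48 turned on control library 3. That library held less of C8b, the fibrinogen chains, Plg and Serping1 than the other 2 control libraries and more C1qb, C3ar1 and Cfp, and Col3a1, a collagen of scar-forming cells, at 137 FPM, against 20.4 and 26.5 FPM in the other 2. The library was singled out after its values were seen. In these genes it was the control library nearest the LIDPAD libraries, so leaving it out widens their differences. The fit without it is therefore no separate support. With it left out, 7 members rose and 33 fell at week 48 (22.3% and 15.4% of all genes tested), in place of 6 and 15. All 21 calls of the full group were among these, and 19 were added. The added falls were those of C8b, Fga, Fgb, Fgg, C8a, Plg, F2, Proc and Klkb1 (-1.83, -1.45, -1.35, -1.45, -1.33, -1.08, -0.77, -0.75 and -0.81), of C1ra, Masp2, Serping1, F12 and F5 (-0.69, -0.52, -0.75, -0.49 and -0.34) and of C1s1, C4b, Mbl1 and F9, genes called in no week with all libraries (-0.21, -0.44, -0.34 and -0.30). The added rise was that of Pros1 (0.34). The week 48 sum of the recruited macrophage markers was 598 to 713 FPM in LIDPAD libraries, against 66.4 to 359 FPM in control libraries, the highest being library 3, and the part of these markers in the calls was not tested. Without control library 1 or 2, 6 and 4 members were called (2.38% and 3.22% of all genes), and without LIDPAD library 1, 2, 3 or 4, 4, 1, 1 and 2 were (1.85%, 1.12%, 0.918% and 1.21%). At week 32, leaving out LIDPAD libraries 1 and 2, an alternative chosen after the data were seen, gave 7 higher and 24 lower (16.8% and 8.13% of all genes), against 7 and 18 with them.

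Many calls rested on single libraries. At week 8 none of the 10 calls was made without LIDPAD library 1 or without LIDPAD library 2, while 16 members were called without control library 1. Of all genes 0.84%, 0.593% and 9.01% were called in these fits. At week 12 the calls of C1qb, C8b, Fgb, Fgg, F7, F11 and Serpinf2 were made in all 4 fits that left out 1 library, 7 of 18. Without LIDPAD library 2, 7 members were called at week 12 (6.05% of all genes), and 29 were without control library 1 (19.9%) and without control library 2 (22.0%). At week 16, 29 of 35 calls were made in all 6 such fits. Those of C3 and C6 were lost without LIDPAD library 3, that of C6 also without LIDPAD library 1, and those of Cfp, Pros1, F5 and F13b without several libraries. At week 32, 16 of 25 calls were made in all 9 such fits. Those of Fga, Fgb, F2, Hc and Serping1 were lost in 6 to 8 of the 9 fits (highest adjusted p = 0.109), those of Fgg and Cfp in 4, that of C1ra without control library 3 and that of Pros1 without control library 1. At week 48 the call of Serpinf2 was made in all 7 such fits, 1 of 21.

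Whether the diet difference itself changed with feeding time was tested over all 7 weeks in a joint fit, by an F test of the 6 interaction terms. It was called for 8 of 43 members, against 10.7% of all genes tested. These were C1qa, C1qb, C1qc, C3ar1, C8a, C8b, Hc and Klkb1 (adjusted p = 0.00277, 0.00229, 0.00274, 0.00229, 0.0482, 0.0239, 0.0173 and 0.0216). The first 4 had changes of -0.65 to -0.45 at week 4 and of 2.18 to 2.68 at week 32. Without weeks 1 and 4 no member was called (adjusted p = 0.121 to 0.418 for these 8), and among all genes 145 in place of 1758 were. The fibrinogen chains were not called (adjusted p = 0.429 for Fga, 0.511 for Fgb and 0.451 for Fgg), so a difference of their change between weeks was not shown.

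Levels per kb of exon put these changes in proportion. In control livers the mean of the week means was highest for Fga, at 1410 FPM per kb, then Fgg at 1130, C3 at 1010 and Fgb at 925 FPM per kb, and lowest for C5ar1 at 0.246 FPM per kb. C1qa, C1qb and C1qc stood at 20.4, 17.5 and 11.3 FPM per kb, ranks 34, 35 and 38 of 43, and C8b at 80.2 FPM per kb, rank 24. Weeks were normalized in separate tables, so these means combine separately scaled values.

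Several members lie next to each other. C8b and C8a are 11.1 kb apart on chromosome 4 (GRCm38, 104766317 to 104876398) and F7 and F10 1.5 kb apart on chromosome 8 (13026034 to 13056676), and at week 16 all 4 fell. C1ra and C1s1 are 6.9 kb apart on chromosome 6, and C1ra fell at week 16 (-0.54 ± 0.10) while C1s1 had a change of 0.07 ± 0.10. F11 and Klkb1 (chromosome 8, 45241174 to 45294859) fell together at weeks 12 and 16, and at week 32 Klkb1 alone did.

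Other genes of these pathways, chosen as lists of 27 complement and 26 coagulation genes, moved both ways. Of the complement genes tested, 1 rose and 0 fell at week 1, 1 and 0 at week 4, 3 and 0 at week 8, 6 and 3 at week 12, 8 and 8 at week 16, 8 and 6 at week 32 and 6 and 2 at week 48. Cfd, which encodes factor D, the protease that starts the alternative route and is known as adipsin in fat tissue, rose in every week. It had 101 and 102 FPM in LIDPAD livers, against 0.646 and 0.211 FPM in control livers at week 4 (log2 change 6.82 ± 0.24, adjusted p = 0.000797), and every LIDPAD library was far above both control libraries, while the adipocyte markers stayed at or under 0.393 FPM in every library. At week 32 LIDPAD library 1 held 0.165 FPM of Cfd, against 9.00 to 23.8 FPM in the other 4. Itgax, part of complement receptor 4 and a marker of dendritic cells and lipid-laden macrophages, rose from week 8 onward, with 18.5, 13.6 and 20.8 FPM in LIDPAD livers, against 1.05, 1.54 and 0.613 FPM in control livers at week 16 (log2 change 3.55 ± 0.23, adjusted p = 3.73e-06). Cd93, a receptor of endothelium and myeloid cells, rose at weeks 12 to 48 (1.29 ± 0.12 at week 16, 2.00 ± 0.26 at week 32). C7, the remaining terminal component, rose at weeks 16, 32 and 48, with 5.13 ± 0.724 FPM in LIDPAD livers and 1.51 ± 0.608 FPM in control livers at week 48 (SD, n = 4 and 3, log2 change 1.52 ± 0.22, adjusted p = 0.0113), a week in which C6 and C8g fell.

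Of the 26 other coagulation genes, 2 rose and 0 fell at week 8, 4 and 3 at week 12, 8 and 8 at week 16, 7 and 4 at week 32 and 2 and 3 at week 48, with no call at weeks 1 and 4. Plau, which encodes urokinase, had 5.58 ± 0.384 FPM in LIDPAD livers and 0.909 ± 0.177 FPM in control livers at week 16 (SD, n = 3 each, log2 change 2.11 ± 0.19, adjusted p = 2.17e-05). Plat, the tissue plasminogen activator, rose by 3.39 ± 0.31 at week 32. Among those that fell were Serpina10, the protein Z-dependent inhibitor, at week 12 (-1.0 ± 0.17) and Lman1, a transport receptor for factors V and VIII, at week 48 (-0.63 ± 0.09), where Tfpi, the inhibitor of tissue factor, rose (0.70 ± 0.11).

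Acute phase genes are given for comparison. Of 15 tested, 2 rose and 0 fell at week 1, 0 and 0 at week 4, 1 and 2 at week 8, 0 and 6 at week 12, 0 and 6 at week 16, 5 and 1 at week 32 and 0 and 1 at week 48. Their median log2 change was 0.75, 0.16, 0.22, -0.50, -0.40, 0.20 and -0.37 at weeks 1, 4, 8, 12, 16, 32 and 48. The fibrinogen chains, which are acute phase proteins in mouse and human, fell together at weeks 12, 16 and 32. The called acute phase genes were also lower at weeks 12 and 16, while most were higher at week 32. The week 32 calls of Fga and Fgb were lost in most fits that left out 1 library. How the fibrinogen changes go with the acute phase genes was not tested. Clock genes were called as well, 8 of 12 at week 1, 4 of 11 at week 4, 2 of 11 at week 8, 9 of 12 at week 12, 4 of 11 at week 16, 2 of 11 at week 32 and 4 of 12 at week 48. Of all genes tested, 1.99%, 0.287%, 5.6%, 15.2%, 28.2%, 26.9% and 9.87% were called in the same weeks. At week 32 the share of clock genes called was below that of all genes, as was that of acute phase genes at weeks 4 and 48. The part of the hour of collection in the members' changes was not tested.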

How the data were processed

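Liver RNA was measured by sequencing in 7 tables of 54532 genes. The deposited values are a signal in FPM (fragments per 1000000): gene counts that the authors divided by size factors, with HISAT2, featureCounts, DESeq2 and GRCm38 named in the submitters' processing notes. Versions and the strand setting are not given in the sources used here. All values (100.0%) returned whole reads within 0.02. Values of 2 reads were 5.35 times as frequent as values of 1, as mates counted singly would give, and on that scale a chi-square of 2 per gene is counting noise. Columns with a chi-square under 2.5 per gene (blocks gave 1.98 to 2.27, other pairs 2.65 or more) were merged by their mean into 38 libraries.

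A gene was tested where the number of libraries at or above 1 FPM reached the size of the smaller group, separately for each week, with limma 3.58.1 in R 4.3.3 on log2(FPM + 0.5), two-sided, with an intensity trend and Benjamini-Hochberg adjustment over all genes tested. Rescaled totals, edgeR 4.0.16 and DESeq2 1.42.0 on the recovered reads, other filters and pseudocounts, a replicate block and leaving out each library were alternatives. The fits were tested on simulated data. Column totals ran from 751451 to 1289800 FPM. Per-kb levels use merged exons of GENCODE M21, and promoter sequences are from RefSeq.

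Every library's value is printed for the 2 members of each role group called in the most weeks and for others called in at least 3 weeks, 27 in all, at least in the week of their smallest p, and the others are given by ranges and counts. Members and lists were chosen with earlier results of these data known. Replicate numbers did not pair the libraries (correlations -0.116 to 0.123).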

Additional observations from a re-analysis of the deposited data

Results flagged for a closer look

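Among 129 groups of 4 or 5 libraries, 17 held a library whose gap to the nearest other library was large beside the range of its group. Chance alone flags about 1 in 20 such groups. Of the 17, 11 were in the LIDPAD group of week 32, and 10 of those were high values in LIDPAD library 1 or 2. LIDPAD library 2 of week 32 held C1qc at 178 FPM (nearest other 82.2 FPM), Cfp at 62.3 FPM (18.9 FPM), C1ra at 274 FPM (196 FPM), C4b at 1718 FPM (1242 FPM), Masp1 at 149 FPM (96.9 FPM) and Pros1 at 155 FPM (86.3 FPM). LIDPAD library 1 of week 32 held Cfi at 646 FPM (nearest other 311 FPM), F10 at 270 FPM (141 FPM), F11 at 59.7 FPM (20.4 FPM) and Serpinc1 at 1099.6 FPM (835 FPM). LIDPAD library 3 of week 32 was lowest for F5, the cofactor of factor X, at 454 FPM (519 FPM).

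In the week 32 control group library 3 was highest for F10 at 251 FPM (nearest other 198 FPM), and library 4 was lowest for F12 at 231 FPM (294 FPM). At week 48 LIDPAD library 1 was highest for C1qb at 78.8 FPM (62.6 FPM), Cfp at 21.9 FPM (16.1 FPM) and Cfb at 8.94 FPM (6.59 FPM), and LIDPAD library 2 was lowest for C4b at 1252 FPM (1428 FPM).

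The diet difference itself varied between weeks, by limma's F test over the 7 weeks, for C1qb and C3ar1 (adjusted p = 0.00229 each), C1qc (0.00274), C1qa (0.00277), Hc (0.0173), Klkb1 (0.0216), C8b (0.0239) and C8a (0.0482). None of these 8 was called without weeks 1 and 4.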

How the results depend on the processing

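The number of members called depended on the setting at several durations. With each deposited column as its own sample, 18 members were called at week 1, 19 at week 4, 32 at week 8, 36 at week 12 and 37 at week 48, against 0, 0, 10, 18 and 21 with libraries. Of all genes 22.9%, 22.6%, 37.3%, 40.1% and 39.0% were then called. At week 8 no filter on low values gave 3 calls and DESeq2 gave 17 (1.64% and 9.52% of all genes). Rescaled totals gave 13 at week 32. Leaving out 1 library gave 0 to 4 calls at week 1, 0 to 3 at week 4, 0 to 16 at week 8, 7 to 29 at week 12, 29 to 33 at week 16, 17 to 28 at week 32 and 1 to 40 at week 48, the libraries being named above. Leaving out LIDPAD libraries 1 and 2 gave 31 at week 32, within 1.5 times the 25 of the full group. The diet difference varied between weeks for 8 members, for 5 with no filter and for 0 without weeks 1 and 4. No called value of a member changed sign under any alternative run. In the 2 against 2 weeks a left-out library leaves a lone sample that is assumed to vary like the others.

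With the replicate number as a block, 4 members were called at week 8, 16 at week 32 and 0 at week 48. The block fit held only numbers present in both diets. It therefore left out LIDPAD library 5 of week 32 and LIDPAD library 4 of week 48. Leaving these out without a block gave 19 calls at week 32 (2277 of 13939 genes higher and 1091 lower) and 2 at week 48 (1.21% of all genes). The fall in calls is thus not that of the block alone. Of 13271 genes tested at week 8, the block fit called 342 higher and 167 lower. At week 32 it called 2089 higher and 832 lower of 13939 genes. At week 48 it called only 2 higher and 13 lower of 14615 genes, so few calls were made there among all genes. The numbers did not pair the libraries, so the samples share only a number. At the other weeks the block moved the count of calls by at most 1.5 times.

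Groups of 2 to 5 libraries limit the precision. Depth limits that of C5ar1, which was under 2 FPM in every control library.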
